A study of Mus musculus with 2 samples.

Results

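Acute-phase and filament genes of reactive Müller glia and astrocytes are described here in single cells of the injured mouse retina. They are Lcn2, Serpina3n, Timp1, A2m, Steap4, Chil1, Crispld2, Prss56, Gfap and Vim, 10 of the 31053 genes counted, selected by symbol with earlier results of these same cells known. All 10 were found in the gene table. The difference between the 2 libraries and the high level in Müller glia-like cells are the reason for their selection, so both are given as description and neither supports anything further. The cells came from C57BL/6 mice aged 6 to 8 weeks, at the 2-week point after an optic nerve injury that both groups shared. One group received PBS and the other MSC-sEV, an abbreviation commonly used for small extracellular vesicles of mesenchymal stem cells. For each group the retinas of 6 mice were pooled, enriched for CD45-positive cells with magnetic beads and run as 1 droplet library, so no difference below can be tested between mice, and neither uninjured retina nor other times are part of the design. The labels call the cells immune cells of the retina, while most kept cells were rod-like (822 of 1347 PBS and 1151 of 2323 MSC-sEV cells). Müller glia do not carry CD45, so their share among these cells does not give their share in the retina.

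Müller glia are the radial support cells that span the retina, and astrocytes sit in its nerve fibre layer. Both answer injury with a reactive state in which intermediate filaments and secreted acute-phase proteins are made, and in many tissues interleukin-6 family cytokines acting through gp130 and STAT3 drive that response. Lcn2 encodes lipocalin-2, which binds iron-carrying siderophores. Serpina3n, Timp1 and A2m encode inhibitors of serine proteases, of matrix metalloproteinases and of proteases of many classes. Gfap and Vim encode the filament proteins GFAP and vimentin, and Prss56 encodes a serine protease of Müller glia that is known for its role in eye size.

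Cells with at least 500 UMIs (unique transcript molecules), at least 300 genes and at most 15% mitochondrial UMIs were kept, 1347 of 1676 barcodes in the PBS library and 2323 of 2593 in the MSC-sEV library. The kept cells held 8037219 and 16565276 UMIs, with medians of 2601 and 2920 UMIs per cell, and 0 barcodes were shared by both libraries. Clustering without the 10 genes gave 17 clusters, of which 1 was Müller glia-like. It held 141 PBS cells (10.5% of cells, median 5720 UMIs) and 80 MSC-sEV cells (3.44%, median 3761.5 UMIs), with 1552015 and 1187530 UMIs in all. All 10 Müller glia markers, such as Rlbp1, Glul and Aqp4, were present in both libraries and summed to 11025 and 10629 CPM (UMIs of the genes per 1000000 UMIs of the class). The markers were thus those of Müller glia for the cluster as a whole.

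Some of its barcodes stood apart. In the PBS library, 8 sets of 2 to 6 barcodes, 33 barcodes in all, were linked by pairs that differed by little more than sampling noise. A barcode joined a set through at least 1 such pair, and not every pair within a set was that close. The mean squared deviation per gene, which is about 1 for repeated draws from a single profile, was between 1.00 and 1.28 for the linked pairs, against a median of 5.77 over 4278 PBS pairs. In the MSC-sEV library the lowest of 1176 pairs was 1.42, and 0 pairs fell under the limit of 1.3. The 33 barcodes held 43.1% of the UMIs of the PBS cluster. Each set was therefore also counted as 1 cell, by its deepest barcode, which leaves out 25 barcodes.

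Astrocyte markers were the second feature. At least 20 UMIs of the list Pax2, S100b, Pdgfra and Gja1 were found in 3 PBS barcodes (30, 34 and 52 UMIs) and in 2 MSC-sEV barcodes (184 and 60 UMIs), and each of the 4 genes had at least 1 UMI in both groups of barcodes. In the PBS barcodes S100b alone gave 30, 28 and 46 of these UMIs, while Pax2 had 1 UMI and Gja1 had 5, each in a single barcode. In the MSC-sEV barcodes S100b had 91 and 47 UMIs, Pdgfra 60 and 3, Gja1 23 and 5 and Pax2 10 and 5. In the 2 MSC-sEV barcodes, 5 of the 10 Müller glia markers (Aqp4, Kcnj10, Car14, Gpr37 and Abca8a) were at 0, and their Müller glia list summed to 3449 CPM. They also held 81 and 155 UMIs of monocyte and macrophage markers (3952 CPM), from 3 of the 9 genes, with Ccr2, Ly6c2 and F13a1 among those at 0, and 6 and 39 UMIs of a pericyte list (754 CPM), all from 1 of its 7 genes. The 3 PBS barcodes formed 1 of the 8 repeated sets, held 44318 to 48759 UMIs each, and carried 1466 to 1703 UMIs of rod markers and 122 to 131 of microglia markers. Apart from these, 2 MSC-sEV barcodes held at least 20 UMIs of pigment epithelium markers (16527 UMIs of all genes together), and 0 PBS barcodes did. The ratios of the 10 genes and of the other genes named are therefore given for all cells of the cluster and for a strict set, in which repeated barcodes are counted once and astrocyte- and pigment-marker barcodes are left out. The strict set held 115 PBS cells (1017990 UMIs) and 76 MSC-sEV cells (1111283 UMIs). One cell in each library lay closest to the limit, with 11 astrocyte-list UMIs in PBS and 9 in MSC-sEV, nearly all of them Gja1 (9 and 8), and no other strict-set cell held 5 or more. Levels in the cell classes and shares of top cells are given for all cells only.

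Markers of other cells also differed between the libraries within the cluster. All 9 microglia markers were seen in both libraries and summed to 963 CPM (0 to 181 UMIs per cell) in PBS and 204 CPM (0 to 163) in MSC-sEV, and to 496 and 204 CPM in the strict set. Of 9 monocyte and macrophage markers, 3 were seen in PBS (26.4 CPM, 0 to 7 UMIs per cell, strict set 16.7 CPM) and 7 in MSC-sEV (524 CPM, 0 to 330, strict set 346), and Ly6c2 and F13a1 were at 0 in both. Among neurons, all 10 rod markers were seen, at 30183 and 22612 CPM (2 to 3456 and 0 to 4019 UMIs per cell, strict set 22282 and 24030). All 8 cone markers summed to 2093 and 457 CPM (0 to 376 and 0 to 509, strict set 1511 and 487). Of 8 bipolar markers, 8 were seen in PBS at 867 CPM (0 to 95) and 7 in MSC-sEV at 109 CPM (0 to 37), where Vsx1 was at 0, and the strict set gave 559.9 and 107. Of 5 erythroid markers, 5 were seen in PBS at 9960 CPM (0 to 3934) and 4 in MSC-sEV at 32 CPM (0 to 4), with Alas2 at 0, and the strict set gave 7254 and 33.3. Of 7 endothelial markers, 7 were seen in PBS (742 CPM, 0 to 47, strict set 1004) and 4 in MSC-sEV (1026 CPM, 0 to 83, strict set 1095), where Cldn5, Emcn and Ly6c1 were at 0. The part of these markers in the results below was not tested.

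Across cell classes, the 10 genes had their highest level in Müller glia-like cells of the MSC-sEV library with 2 exceptions, Crispld2 and Vim. In that library each of the 10 genes was higher in Müller glia-like than in rod-like cells, as were 45.6% of the genes counted in either. Against all other cells together, all 10 were at least 2-fold higher there, and in the PBS library 5 of the 6 genes with at least 20 UMIs were, where 15.4% and 14.5% of all genes with at least 20 UMIs passed the same limit. Müller glia-like cells held 96.4% of the Lcn2 UMIs of the MSC-sEV library, 94.7% of Steap4, 92.7% of Serpina3n, 91.9% of Prss56, 89.5% of Chil1, 79.7% of Gfap and 78.3% of A2m. They held 37.9% of Crispld2, 36.2% of Timp1 and 23.4% of Vim.

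**Figure D1:**
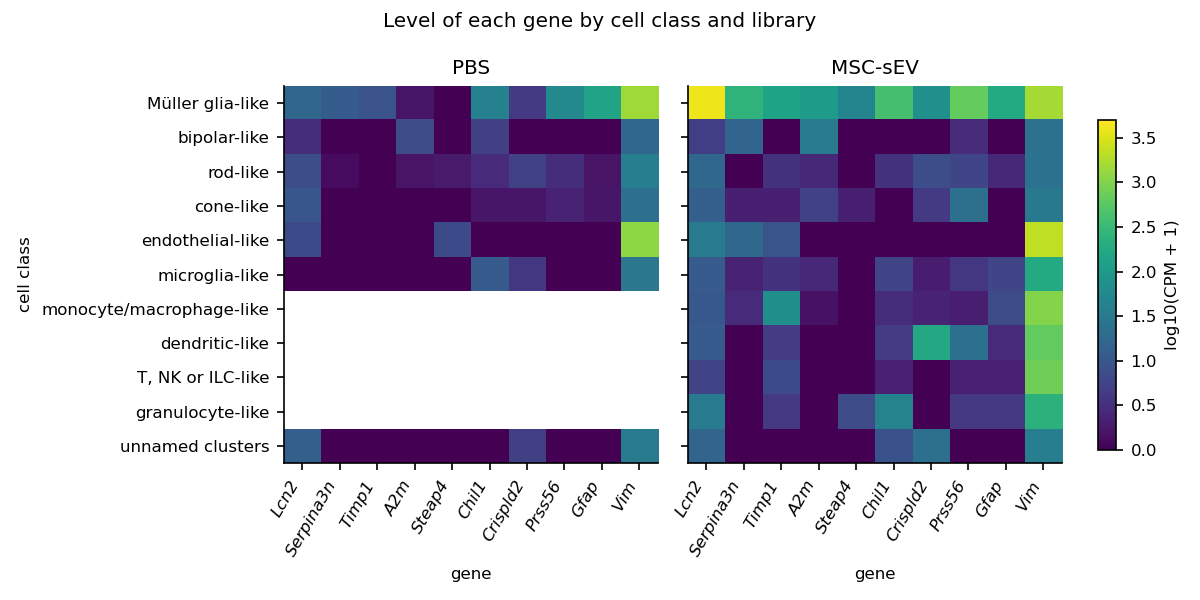
Level of the 10 genes (columns) in each cell class (rows) of the PBS and the MSC-sEV library, as log10(CPM + 1) of summed UMIs, and white where a library had no cell of the class. The Müller glia-like row is the brightest for most genes, while Vim is also bright in endothelial-like cells, Timp1 in monocyte/macrophage-like cells and Crispld2 in dendritic-like cells of the MSC-sEV library.

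Other cells also held Timp1, Crispld2 and Vim. Timp1 reached 68.7 CPM in monocyte/macrophage-like cells, with 266 UMIs and a UMI in 62 of 203 cells, all in the MSC-sEV library, since the PBS library had none of these cells. Crispld2, which encodes a secreted protein known to bind endotoxin, was higher in dendritic-like cells (97 UMIs, 171 CPM, 139 at the lower end of the interval) than in Müller glia-like cells (69.9 CPM), and 18 of 50 dendritic-like cells held it. Vim reached 1018 CPM in monocyte/macrophage-like, 791 in T, NK or innate lymphoid-like and 638 in dendritic-like cells. In endothelial-like cells it was at 1179 CPM in PBS (21 cells) and 2210 in MSC-sEV (10 cells), and in microglia-like cells at 28.7 CPM in PBS and 184 in MSC-sEV. In the MSC-sEV library the other 7 genes were lower in every other class. In the PBS library A2m (1 UMI in Müller glia-like cells) was at 6.15 CPM in bipolar-like cells on 3 UMIs, and the 4 Steap4 UMIs were outside the Müller glia-like cluster. Bipolar-like cells of the MSC-sEV library held A2m at 32.5 CPM (17 UMIs) and Serpina3n at 15.3 CPM (8 UMIs), and granulocyte-like cells held Chil1 at 44.2 CPM (14 UMIs) and Lcn2, which neutrophils are known to store, at 31.6 CPM (10 UMIs).

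Rod-like cells were used as a stand-in for the level that free RNA can leave in a droplet, since no empty droplets were examined. Lcn2 was at 6.46 CPM in rod-like cells of the PBS library (22 UMIs, in 22 of 822 cells, median 2385.5 UMIs per cell) and at 16.4 CPM in those of the MSC-sEV library (60 UMIs, in 49 of 1151 cells, median 2532). In PBS the Lcn2 level of Müller glia-like cells, 15.5 CPM (9.91 to 23), was above that of rod-like cells of the same library (4.05 to 9.78), and it was 2.51 times (1.45 to 4.26) that of all other PBS cells. That excess rested on 1 cell, which held 11 of the 24 UMIs. Without it the PBS level was 8.46 CPM, within the rod-like interval. A UMI of Lcn2 was seen in 8.51% of PBS and 21.2% of MSC-sEV Müller glia-like cells (median 5720 and 3761.5 UMIs per cell), and in 2.68% and 4.26% of rod-like cells. With each cell thinned to 1000 UMIs, which leaves out 31 PBS and 21 MSC-sEV Müller glia-like cells, Lcn2 was found in 0 of 110 and 7 of 59 (11.9%) of them, and in 1.31% and 1.62% of rod-like cells. Crispld2 in PBS was at 3.22 CPM in Müller glia-like and 4.11 CPM in rod-like cells, so its PBS level stood no higher than in rod-like cells. The remaining genes stood between 0 and 4.92 CPM in rod-like cells of both libraries, except Vim at 37 and 22.9 CPM. Prss56 was detected in 18.4% of PBS and 40% of MSC-sEV Müller glia-like cells and in 0.608% and 1.39% of rod-like cells, and after thinning in 6.36% and 27.1% against 0.164% and 0.405%. Chil1 went from 27% and 43.8% of Müller glia-like cells to 2.73% and 13.6% after thinning, with 0.608% of rod-like cells in each library before it. Gfap was detected in 4.96% and 21.2%, and after thinning in 3.64% and 6.78%, with 0.243% and 0.434% of rod-like cells before it. Shares of cells therefore depended on depth for all of these genes, while each share in MSC-sEV was above that in PBS both ways.

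**Figure D2:**
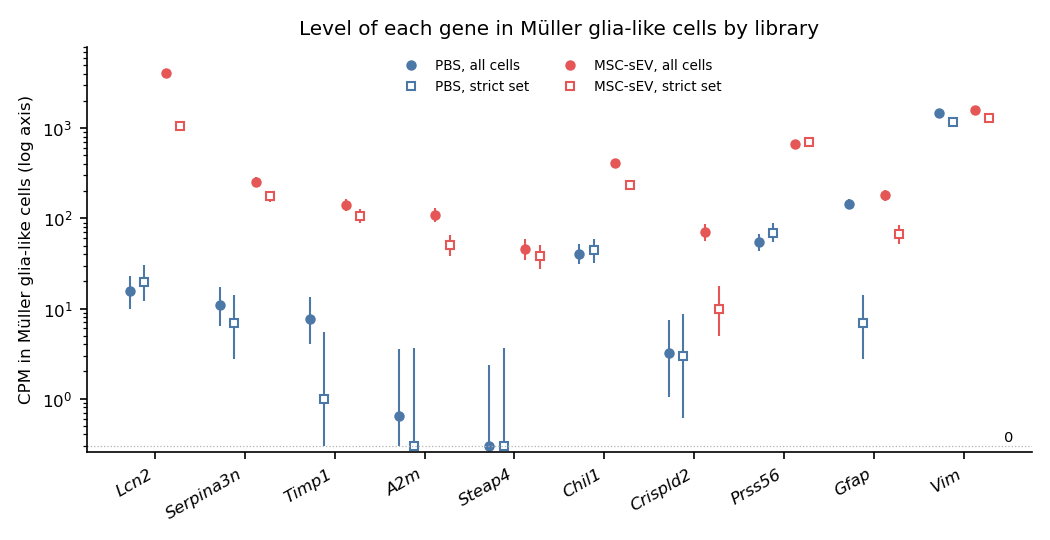
CPM of each gene in Müller glia-like cells of the PBS (blue) and MSC-sEV (red) library on a log axis, for all cells (filled circles) and the strict set (open squares), with 95% Poisson intervals and values of 0 drawn on the dotted line. The red marks lie above the blue ones for Lcn2, Serpina3n, Timp1, A2m, Steap4, Chil1 and Prss56 in both sets of cells, while the circles of Gfap lie close together and its squares do not, and both pairs of marks of Vim lie close together.

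Lcn2, the siderophore-binding lipocalin (ENSMUSG00000026822, chromosome 2, 32384633 to 32388252, minus strand, GRCm38), had 24 UMIs in the 141 PBS cells and 4833 in the 80 MSC-sEV cells. That was 15.5 CPM against 4070 CPM, a ratio of 263 (95% interval 177 to 411, exact conditional binomial, covering counting error only as all intervals here). The 2 astrocyte-marker barcodes held 2229 and 1427 of the MSC-sEV UMIs, 75.6% of them. Without these barcodes 1177 UMIs were left in 15 of the other MSC-sEV cells, and 5 of them held 502, 311, 163, 85 and 57 UMIs. The cell with 502 is the one with 9 astrocyte-list UMIs, and the PBS cell with 11 held 11 of the 20 strict-set PBS UMIs. The strict set gave 19.6 CPM for PBS and 1059 for MSC-sEV, a ratio of 53.9 (34.7 to 88.6). With both of those cells left out as well, 9 and 675 UMIs gave 8.97 and 629.7 CPM and a ratio of 70.2 (36.8 to 154). Without the 5 cells with most Lcn2 in each library the ratio was 40.2 (19.1 to 101), and without cells that held at least 2 leukocyte markers, which leaves 92 and 42 shallower cells, it was 20.2 (11.8 to 36.8). The MSC-sEV level was thus above that of PBS in each of these sets of cells, by factors that differed widely.

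Steap4, a metalloreductase that reduces iron and copper (ENSMUSG00000012428, chromosome 5, 7960457 to 7982213, plus strand), was listed with 0 UMIs in the PBS and 54 UMIs in the MSC-sEV Müller glia-like cells. It was at least 23.5-fold higher in MSC-sEV, with the 0 replaced by a floor of 3 UMIs over the class. The highest MSC-sEV cell held 23 of the 54 UMIs, and 9 of 80 cells held any. Its strict-set counts of 42 against 0 gave a level at least 12.8-fold higher, but 23 of the 42 were in the cell with 9 astrocyte-list UMIs. Without that cell it was at least 5.93-fold higher, and without the 5 cells with most Steap4 only 4 UMIs were left. The transcript was therefore seen in Müller glia-like cells of 1 library only, and in few of those cells.

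The 3 protease inhibitors were each over 15-fold higher in the MSC-sEV cells by summed UMIs, and less so under other settings. With cells thinned to 1000 UMIs the log2 ratio was 3.12 for Serpina3n, 2.12 for Timp1 and 2.31 for A2m, against 4.55, 4.19 and 7.41 as deposited, and for Serpina3n it was 2.45 with each cell weighing the same. Serpina3n, a serine protease inhibitor and a widely used mark of reactive astrocytes (ENSMUSG00000021091, chromosome 12, 104406729 to 104414329, plus strand), had 17 PBS and 305 MSC-sEV UMIs, or 11 and 257 CPM, a ratio of 23.4 (14.4 to 40.8). Its strict-set values were 6.88 and 176 CPM with a ratio of 25.6 (12.2 to 64.6). A single MSC-sEV cell of the strict set held 86 UMIs and the 2 astrocyte-marker barcodes held 77 and 32, so the gene was high in both kinds of barcode.

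Timp1, which inhibits matrix metalloproteinases (ENSMUSG00000001131, chromosome X, 20870166 to 20874735, plus strand), had 12 PBS and 168 MSC-sEV UMIs, or 7.73 and 141 CPM, a ratio of 18.3 (10.2 to 36.1). The 3 repeated astrocyte-marker barcodes held 10 of the 12 PBS UMIs. With the strict set 1 PBS UMI stood against 118 MSC-sEV UMIs, a ratio of 108 with a counting interval of 19 to 4305. Of those 118 UMIs, 74 were in 1 cell. Without the 5 cells with most Timp1 in each library, 22 MSC-sEV UMIs against 0 gave a level at least 9.58-fold higher. The PBS level of Timp1 thus rested on the astrocyte-marker barcodes, and the MSC-sEV level did not.

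A2m, the broad protease inhibitor alpha-2-macroglobulin (ENSMUSG00000030111, chromosome 6, 121635376 to 121679227, plus strand), had 1 PBS and 130 MSC-sEV UMIs, or 0.644 and 109 CPM, a ratio of 169.9 (30 to 6762). The 2 pigment-marker barcodes held 38 of the 130 UMIs and the 2 astrocyte-marker barcodes 36. The strict set kept 56 UMIs in 16 of 76 MSC-sEV cells and 0 in PBS, and A2m was then at least 17.1-fold higher in MSC-sEV. The highest of these cells held 14 UMIs.

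Chil1 encodes the secreted chitinase-like protein YKL-40 (ENSMUSG00000064246, chromosome 1, 134182176 to 134190181, plus strand). Of the genes other than Prss56, Gfap and Vim it had the most PBS cells, 38 of 141 with a UMI, against 35 of 80 MSC-sEV cells. Its 63 PBS and 486 MSC-sEV UMIs gave 40.6 and 409 CPM, a ratio of 10.1 (7.74 to 13.3). One astrocyte-marker barcode (176 UMIs) and 1 other cell (172 UMIs) held most of the MSC-sEV UMIs. That other cell, the one with 9 astrocyte-list UMIs, held 172 of the 259 strict-set UMIs. The strict-set ratio was 5.27 (3.83 to 7.41). With the cells nearest to the astrocyte limit left out it was 2.09 (1.42 to 3.13), on 39 and 87 UMIs, and without the 5 cells with most Chil1 in each library it was 2.07 (1.38 to 3.14).

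Crispld2 (ENSMUSG00000031825, chromosome 8, 119992438 to 120052793, plus strand) had 5 PBS and 83 MSC-sEV UMIs, 3.22 and 69.9 CPM, a ratio of 21.7 (8.93 to 68.6). The 2 astrocyte-marker barcodes held 49 and 23 of the 83 UMIs, 86.7% of them. Outside them, in the strict set, 3 UMIs stood against 11, a ratio of 3.36 whose counting interval of 0.887 to 18.8 includes 1. For Crispld2 a difference in the other Müller glia-like cells was thus not detectable at this depth.

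Prss56, the serine protease (ENSMUSG00000036480, chromosome 1, 87183313 to 87188405, plus strand), was at 0 in all 5 astrocyte-marker and both pigment-marker barcodes. It had 84 UMIs in 26 of 141 PBS cells and 793 UMIs in 32 of 80 MSC-sEV cells, 54.1 and 668 CPM, a ratio of 12.3 (9.84 to 15.6). The strict set gave 69.7 and 714 CPM and a ratio of 10.2 (8.02 to 13.2). The highest PBS cell held 26 UMIs and the highest MSC-sEV cell 148. With the 5 top cells of each library left out the ratio was 12 (8.39 to 17.7). Without cells that held at least 2 leukocyte markers it was 2.8 (1.81 to 4.3), on 52 UMIs in 92 PBS cells (median 1904 UMIs of all genes) and 41 in 42 MSC-sEV cells (median 1006.5). Prss56 was thus higher in MSC-sEV in each set, and much less so among the shallow cells that the last one leaves.

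The 2 filament genes differed from these. Gfap (ENSMUSG00000020932, chromosome 11, 102887336 to 102900912, minus strand) had 225 PBS and 216 MSC-sEV UMIs, 145 and 182 CPM, a ratio of 1.25 (1.04 to 1.52). The 3 repeated astrocyte-marker barcodes held 75, 75 and 68 of the 225 PBS UMIs, 96.9% of them, and the 2 MSC-sEV barcodes held 76 and 66 of 216. Among strict-set cells 7 UMIs in 4 of 115 PBS cells stood against 74 UMIs in 15 of 76 MSC-sEV cells, 6.88 against 66.6 CPM, a ratio of 9.68 (4.47 to 24.9). One MSC-sEV cell held 39 of those 74. Gfap thus passed the 2-fold limit in the strict set and did not in all cells.

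Vim (ENSMUSG00000026728, chromosome 2, 13573927 to 13582826, plus strand) was found in 109 of 141 PBS cells and 65 of 80 MSC-sEV cells. Its 2315 and 1912 UMIs gave 1492 and 1610 CPM, a ratio of 1.08 (1.02 to 1.15). The strict set gave 1191 and 1318 CPM with a ratio of 1.11 (1.03 to 1.2), so its level was nearly the same in both libraries. The 3 PBS astrocyte-marker barcodes held 280 to 294 Vim UMIs each, and no other PBS Müller glia-like barcode held more than 64.

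**Figure D3:**
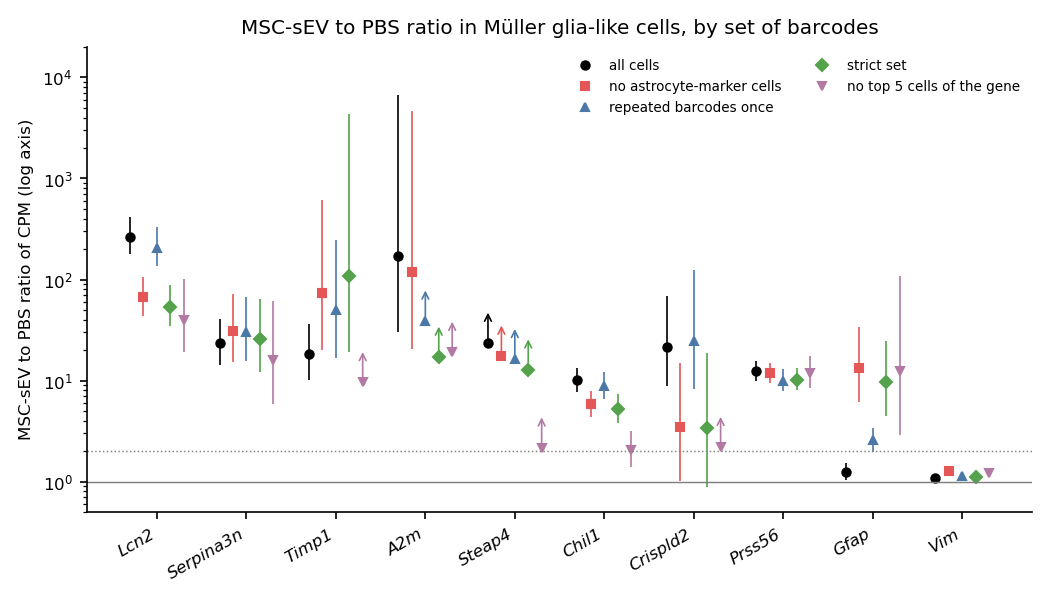
Ratio of MSC-sEV to PBS CPM in Müller glia-like cells for each gene on a log axis, for 5 sets of barcodes, with 95% counting intervals, arrows where PBS had 0 UMIs and the mark is a lower bound, a solid line at 1 and a dotted line at 2. The marks of Lcn2, Serpina3n, Timp1, A2m, Steap4, Chil1, Crispld2 and Prss56 stay above 2 in all 5 sets. Those of Steap4, Chil1 and Crispld2 are only just above it without the top 5 cells of the gene (2.16, 2.07 and 2.19). Gfap moves from 1.25 with all cells to 9.68 in the strict set, and Vim stays near 1.

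In all, 8 of the 10 genes were at least 2-fold higher in MSC-sEV Müller glia-like cells and 0 were at least 2-fold lower. Of the 10225 genes with at least 20 UMIs in the class, 9.06% were at least 2-fold higher and 4.71% at least 2-fold lower. The median log2 ratio was 4.32 for the 10 genes and 0.12 for all 10225. With repeated barcodes counted once, 9 of 10 were higher and 0 lower, against 7.84% and 3.57% of 9721 genes. In the strict set 9 of 10 were higher and 0 lower, with Crispld2 included on 14 UMIs, against 7.35% and 3.6% of 9519 genes. Since the genes were taken for this difference, the shares describe the selection.

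The astrocyte-marker barcodes can be set side by side, with the repeated PBS set counted once. That is 1 PBS and 2 MSC-sEV barcodes. The barcodes were not alike, since the astrocyte list summed to 819 CPM in the 3 PBS barcodes and to 4086 in the MSC-sEV ones. Rod markers were at 33452 and 2294 CPM, microglia markers at 2704 and 234, and monocyte and macrophage markers at 42.4 and 3952. Gfap was at 1395 CPM in PBS and 2378 in MSC-sEV, and Vim at 6030 and 7485. Lcn2 was at 20.5 CPM (1 UMI) in PBS and 61219 in MSC-sEV, with 66711 in one barcode and 54244 in the other. Serpina3n stood at 41 (2 UMIs) and 1825 CPM, Timp1 at 41 (2 UMIs) and 837, and Chil1 at 82 (4 UMIs) and 3667. The filament genes were thus high in these few barcodes of both libraries, and the secreted genes named in the 2 of the MSC-sEV library. The part of their unlike markers in this was not tested.

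Few cells held most UMIs of these genes. In the MSC-sEV library the top 5 cells held over 50% of the UMIs of 8 of the 10 genes, as they did for 3.53% of the 13722 genes with at least 20 UMIs. For Lcn2 the top cell held 44.4%, the top 5 held 92.3% and the top 10 held 96.2% of 5016 UMIs, against medians over all genes of 2.06%, 7.67% and 13%. Those medians are over all kept cells, so a gene of a small class lies above them more easily. Within MSC-sEV Müller glia-like cells alone the medians were 11.6%, 42.1% and 65%, and Lcn2 had 46.1%, 95.8% and 99.8%. The top 5 share within the class was lowest for Vim (40.3%, below the median) and next lowest for Prss56 (64.3%). The top 5 share was 87.7% for Steap4, 78.7% for Serpina3n, 77.5% for Chil1, 73.4% for Gfap, 59.1% for Prss56, 55.4% for A2m and 50.7% for Crispld2. It was 40.1% for Timp1 and 16.2% for Vim, which other cell classes also held. A single strict-set cell of 39379 UMIs, with 9 astrocyte-list UMIs, held 502 Lcn2, 172 Chil1 and 23 Steap4 UMIs, and 0 of Timp1, Prss56 and Gfap. All of the top 5 cells were Müller glia-like for Lcn2, Serpina3n, A2m, Steap4, Chil1, Prss56 and Gfap, and 2 of 5 were for Timp1, Crispld2 and Vim.

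The same held in the PBS library for Gfap, where the top 5 cells held 97.8% of 228 UMIs, and for Prss56, with 53.8% of 93 UMIs. There 2.33% of all genes had over 50% of their UMIs in the top 5 cells, and the median was 13%. Within PBS Müller glia-like cells alone the top 5 held 99.1% of Gfap and 59.5% of Prss56, against a median of 30%. Lcn2 was spread more widely in PBS, with 64 UMIs in 46 cells and 32.8% of them in the top 5 cells. The PBS totals of Serpina3n (18), Timp1 (12), A2m (6) and Steap4 (4) were under 20 UMIs, too few for a share to be read.

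**Figure D4:**
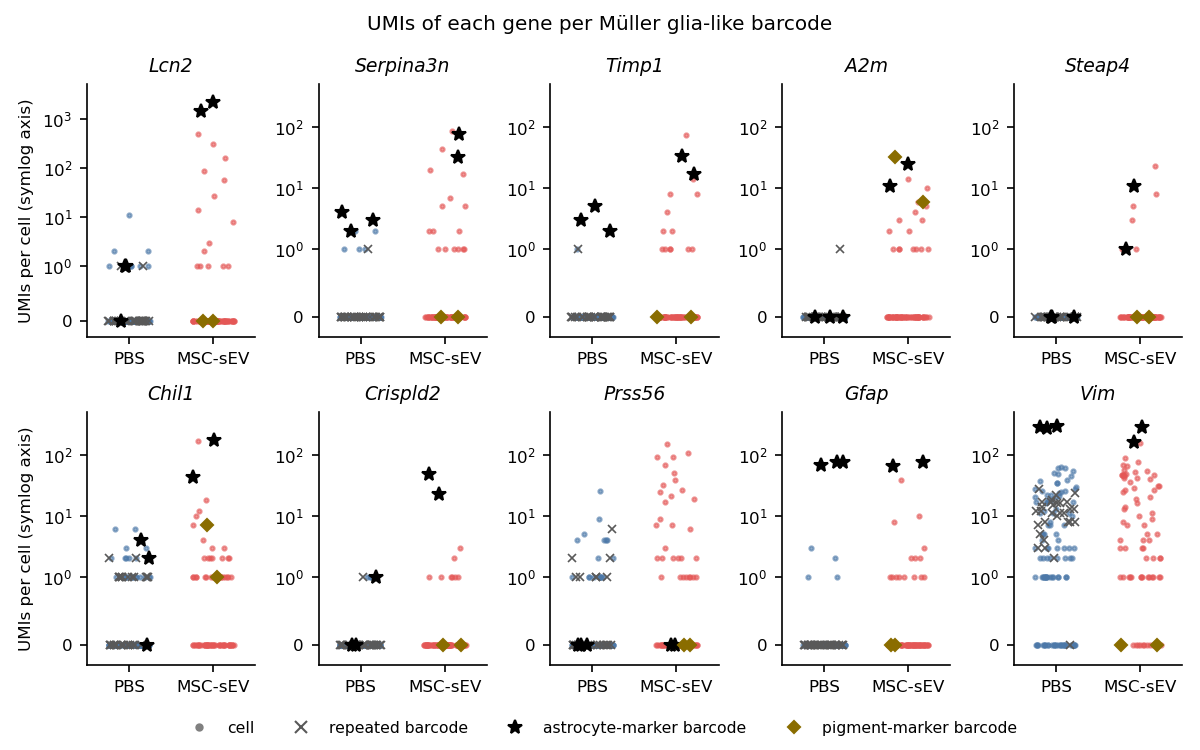
UMIs of each gene in single Müller glia-like barcodes of both libraries on an axis that is linear below 1 and logarithmic above, with repeated PBS barcodes as crosses, astrocyte-marker barcodes as stars and pigment-marker barcodes as diamonds. The stars are the highest points for Lcn2, Chil1, Crispld2, Gfap and Vim in MSC-sEV and for Gfap and Vim in PBS, and all stars lie at 0 for Prss56.

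Within the MSC-sEV library several of the genes other than Prss56, Gfap and Vim were found in the same cells. Of the 7 genes Lcn2, Serpina3n, Timp1, A2m, Steap4, Chil1 and Crispld2, at least 3 were detected in 20 of 80 MSC-sEV cells and in 4 of 141 PBS cells, and in 18 of 76 and 1 of 115 cells of the strict set. Deep cells hold more detected genes of every kind, so they are also given alone. Among strict-set cells of at least 10000 UMIs the counts were 17 of 31 and 1 of 39, and the highest number of the 7 genes in a cell was 6 and 3.

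The pairs of these 7 genes were compared with the product of their shares of cells. All 21 pairs lay above the product in MSC-sEV cells as deposited (median 2.35 times the product), 20 of 21 did in cells of at least 10000 UMIs (median 1.26), and 17 of 21 did in such cells of the strict set (median 1.19). Lcn2 and Serpina3n were found together in 10 of 80 cells with 3.83 expected from the product, and in 7 of 31 deep strict-set cells with 4.19 expected. Lcn2 and Steap4 shared 5 of those 31 cells with 2.52 expected. After thinning to 1000 UMIs only 2 of the 21 pairs were expected in at least 1 cell, and both lay above the product. The MSC-sEV ratio was therefore closer to 1 among deep cells, while most pairs stayed above it. In PBS all 4 pairs expected in at least 1 cell lay above the product as deposited, and 3 of 5 did in deep cells. Among deep strict-set PBS cells 3 pairs were expected in at least 1 cell, and all 3 lay below (median 0.65). Pairs of other genes were not compared and depth still varied among deep cells, so the part of depth was not tested.

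Prss56 stood apart from that pattern among deep cells. Its 9 pairs with the other genes, here with Gfap and Vim included, lay above the product in 7 of 9 cases as deposited. In deep cells 8 of 9 lay below (median 0.81), and in deep cells of the strict set 7 lay below and 1 above (median 0.886). All 31 deep strict-set cells held Vim, so its pair with Prss56 could only equal the product there. Prss56 and Serpina3n shared 3 of 31 deep strict-set cells with 6.77 expected. By amount, 8 MSC-sEV cells had at least 5 UMIs of Lcn2 only, 15 had at least 5 UMIs of Prss56 only, and 2 had both, with 2.12 expected from the shares over all 80 cells and 4.41 expected among the 34 cells of at least 10000 UMIs. Müller glia markers made up 0.65% of the UMIs of the Lcn2 cells and 1.34% of those of the Prss56 cells, and in the strict set 0.699% and 1.34%.

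**Figure D5:**
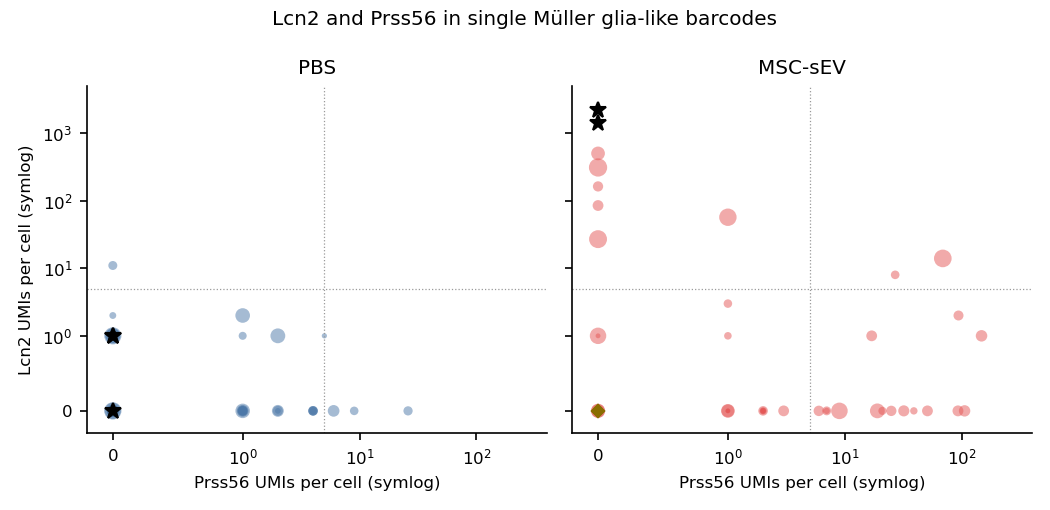
UMIs of Lcn2 against UMIs of Prss56 in single Müller glia-like barcodes of the PBS (left) and MSC-sEV (right) library, on axes linear below 1 and logarithmic above, with the area of a point growing with the UMIs of the cell, stars for astrocyte-marker and diamonds for pigment-marker barcodes, and dotted lines at 5 UMIs. Of the 25 MSC-sEV points beyond a dotted line, 2 are beyond both.

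The promoters of 9 of the 10 genes were matched in the RefSeq table (build GRCm38.p6), and A2m is named only. The 250 bases before each start were searched on both strands for the STAT motif TTCNNNGAA, the AP-1 motif TGANTCA and the C/EBP motif TTGCNNAA, since these factors act in the acute-phase response. The STAT motif was found in 2 of the 9 (Steap4 and Prss56) and in 7.02% of 32851 promoters, the C/EBP motif in 2 of the 9 (Lcn2 and Steap4) and in 9.56%, and the AP-1 motif in 0 of the 9 and in 6.75%. These are descriptions of letters in a short window. By GENCODE M21 the windows of Lcn2, Gfap and Vim lay inside the gene span, so there the Lcn2 match is not upstream of the gene. The windows of 2 genes with a STAT match and of 2 inhibitors with no match to any of the 3 motifs are shown 5′ to 3′ on the gene's strand, without bases that GENCODE M21 places in an exon of the gene, and capitals mark motif matches. They are Steap4 at chr5:7960222-7960456, Prss56 at chr1:87183064-87183312, Serpina3n at chr12:104406458-104406707 and Timp1 at chrX:20869916-20870165, all on the plus strand. In Steap4 the STAT match begins 116 bases and the C/EBP match 87 bases before the start, and in Prss56 the STAT match begins 152 bases before it.
Steap4: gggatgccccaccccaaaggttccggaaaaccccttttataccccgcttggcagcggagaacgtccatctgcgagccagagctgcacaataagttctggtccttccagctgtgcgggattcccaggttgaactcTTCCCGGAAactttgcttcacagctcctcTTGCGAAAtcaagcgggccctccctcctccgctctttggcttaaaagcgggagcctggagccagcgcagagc
Prss56: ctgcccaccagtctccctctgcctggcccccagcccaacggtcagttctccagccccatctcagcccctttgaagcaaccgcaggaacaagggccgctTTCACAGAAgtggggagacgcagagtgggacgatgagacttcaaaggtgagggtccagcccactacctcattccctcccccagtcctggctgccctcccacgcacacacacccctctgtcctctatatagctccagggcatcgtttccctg
Serpina3n: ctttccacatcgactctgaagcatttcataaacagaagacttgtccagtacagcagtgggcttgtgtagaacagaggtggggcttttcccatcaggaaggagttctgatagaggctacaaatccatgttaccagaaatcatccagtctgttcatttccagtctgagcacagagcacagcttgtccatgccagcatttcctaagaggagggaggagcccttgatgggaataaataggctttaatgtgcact
Timp1: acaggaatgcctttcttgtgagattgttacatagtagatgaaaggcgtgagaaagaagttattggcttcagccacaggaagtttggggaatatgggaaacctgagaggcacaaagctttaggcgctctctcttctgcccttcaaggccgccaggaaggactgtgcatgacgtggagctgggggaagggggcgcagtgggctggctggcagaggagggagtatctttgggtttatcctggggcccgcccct

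Further gene lists were chosen with earlier results of these data known, so their counts are given as description. Of 19 further acute-phase genes 5 had at least 20 UMIs in the cluster over both libraries. All 5 were at least 2-fold higher in MSC-sEV in both sets of cells, as were 9.06% of all genes and 7.35% in the strict set. The median log2 ratio of the 5 was 2.67 in all cells and 2.31 in the strict set. C3 reached the UMI limit only through its MSC-sEV UMIs. C3, the central complement component, had 1 PBS and 686 MSC-sEV UMIs, a ratio of 897 (160.4 to 35463), and in the strict set 1 against 492 (451, 80.5 to 17837). The cell with 9 astrocyte-list UMIs held 386 of them, and without it and its PBS counterpart the ratio was 99.2 (17.4 to 3956). C4b, another complement gene, stood at 32.9 and 291 CPM, a ratio of 8.84 (6.57 to 12.1, strict set 7.96), and was spread over 44 MSC-sEV cells. Cp, which encodes the copper-carrying ferroxidase ceruloplasmin, was 3.98-fold higher (3.68 to 4.31) in all cells and 2.44-fold (2.24 to 2.66) in the strict set. The metallothionein genes Mt1 and Mt2 were 3.5-fold (3.3 to 3.72) and 6.37-fold (5.53 to 7.37) higher, and in the strict set 2.83-fold and 4.95-fold. The highest cell held 1420 of the 3975 Mt1 UMIs of the MSC-sEV library's cluster, and the highest for Mt2 held 516 of 1131. Ratios without these highest cells were not computed. Other acute-phase genes such as Hp, Saa3 and Fgb were among the 14 with fewer than 20 UMIs in the cluster.

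Of 30 other genes that mark reactive astrocytes, 19 had at least 20 UMIs, 9 were at least 2-fold higher and 3 at least 2-fold lower (median log2 ratio 0.77). For the strict set these counts were 18, 11 and 3, and the 11 include Fkbp5 on 6 and 15 UMIs (ratio 2.29, 0.84 to 7.2). Over all genes 9.06% were at least 2-fold higher and 4.71% lower (median 0.12), and in the strict set 7.35% and 3.6%. Serping1, a complement inhibitor, was 5.91-fold higher (4.57 to 7.72) in all cells and 4.82-fold in the strict set. Gbp2, an interferon-induced GTPase, was 4.94-fold (3.74 to 6.62) and 3.57-fold higher, with 55 of its 64 PBS UMIs in 1 cell. H2-D1, S100a10 and Hsbp1 had ratios of 1.36, 1.48 and 0.9, and of 1.46, 1.36 and 1.01 in the strict set. Cxcl10, an interferon-induced chemokine, went the other way with 140 PBS and 3 MSC-sEV UMIs, but 134 of the 140 were in 1 PBS cell. Cd14, a co-receptor for bacterial lipopolysaccharide that microglia also express, had 61 and 12 UMIs (ratio 0.257, 0.126 to 0.482), and in the strict set 26 and 10 (0.352, 0.152 to 0.755).

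In the gp130 and STAT3 pathway, 15 of 21 genes had at least 20 UMIs, 7 were at least 2-fold higher and 0 lower (median log2 ratio 0.90), and in the strict set 8 of 14 were higher (median 1.06). The shares of all genes were 9.06% higher and 4.71% lower (median 0.12), and 7.35% higher in the strict set (median 0.08). The limit of 20 UMIs sums both libraries, so a gene with few PBS UMIs can reach it through its MSC-sEV UMIs. Strict-set examples counted as higher are Bcl3 (1 and 19 UMIs) and Tyk2 (6 and 14, ratio 2.14, 0.772 to 6.79). Among the receptors, Il6st, which encodes gp130 itself, was at 72.8 and 129 CPM (ratio 1.77, 1.38 to 2.28, strict set 1.51), and Cntfr, the receptor for ciliary neurotrophic factor, at 111 and 96 CPM (0.866, 0.678 to 1.1, strict set 0.797). The kinase gene Jak1 had a ratio of 1.5 (1.14 to 1.97, strict set 1.37) and Stat3 3.39 (2.5 to 4.63, strict set 3.33), with the same total of UMIs in the cluster. Cebpd, a transcription factor of the acute-phase response, was 2.32-fold higher (2.1 to 2.57) in all cells and 1.89-fold in the strict set. Nfkbiz and Bcl3, nuclear partners of NF-kB, were 5.63-fold (3.04 to 11.2, strict set 6.15) and 8.71-fold (2.58 to 45.8, on 3 PBS UMIs) higher. Bcl3 had 1 against 19 UMIs in the strict set, a ratio of 17.4 (2.77 to 723). The ligand Clcf1 had 15 and 8 UMIs, and 11 and 8 in the strict set.

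Relatives of the 10 genes behaved unevenly. Of 30 relatives in the files, 9 had at least 20 UMIs and 4 of them were at least 2-fold higher (median log2 ratio 0.94), and in the strict set 3 of 8. All genes passed that limit in 9.06% of cases (median 0.12), and in the strict set in 7.35%. The 3 strict-set relatives include Steap3 on 9 and 22 UMIs (ratio 2.24, 0.991 to 5.52). Ptgds, a lipocalin like Lcn2, was 17.8-fold higher (15 to 21.4) in all cells, but 1323 of its 1898 MSC-sEV UMIs were in 1 pigment-marker barcode, and in the strict set its ratio was 2.48 (1.98 to 3.12). Timp3 and Timp2 had ratios of 2.16 and 1.27 (strict set 1.57 and 1.25), against 18.3 for Timp1. The filament genes Nes and Synm had ratios of 2.46 (1.33 to 4.72) and 2.19 (1.5 to 3.22), and in the strict set 2.5 and 1.83. Crispld1 had 27 and 14 UMIs, and 25 and 14 in the strict set. Of 12 receptors and targets of the encoded proteins, 5 had at least 20 UMIs and 0 passed 2-fold either way, with a median log2 ratio of 0.76 in all cells and -0.04 in the strict set. Cd63, a partner of Timp1, had a ratio of 1.15 (1.03 to 1.27), and 0.971 in the strict set. Lrp1, the receptor of protease-bound alpha-2-macroglobulin, had 1.87 (1.51 to 2.32), and 1.41 in the strict set. Slc22a17, a receptor for lipocalin-2, had 0.94 (0.72 to 1.22) and 0.838. Mmp14, a membrane-bound metalloproteinase, had 1.7 (1.14 to 2.54) and 1.4, and Lrp2, a large endocytic receptor, had 1.89 (0.996 to 3.66) and 0.97 (0.472 to 2). No receptor or target thus differed by 2-fold, and 4 of the 5 strict-set ratios were closer to 1 than those of all cells.

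Over 26 points, each a cluster in a library with at least 20 cells, the genes whose log2(CPM + 10) was most like the mean of the 10 were Pdgfra (Pearson r 0.964), Vcan, Foxp2, Npy, Igfbp2, Gm973, Pdyn, Gli3, Serpine3 and Serping1 (0.903), among 12911 genes with at least 50 UMIs. The points share libraries and depth, and 1 of them, MSC-sEV Müller glia-like cells, was the highest for 9 of the 10 genes, so this is a description. Pdgfra is on the astrocyte list, and the 2 astrocyte-marker barcodes held 60 and 3 of its 66 MSC-sEV UMIs in the cluster. The likeness was computed on all cells, and not on the strict set. All 466 Serpine3 UMIs of the cluster were in MSC-sEV cells.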

How the data were processed

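Droplet 3′ libraries of pooled, bead-enriched cells were made with 10x Genomics v3 reagents, and the authors deposited UMI counts per gene and barcode, mapped to mm10 with Cell Ranger 3.0.2 per the labels' protocols and the processing notes of the submitters. The counts were used as deposited. Depth was 8439740 UMIs (PBS) and 16987131 UMIs (MSC-sEV). Cells were filtered as in the results, with no doublet removed, and clustered with scanpy 1.11.5 (2000 variable genes without the 10 genes and without mitochondrial, ribosomal protein and sex-linked genes, 30 components, 20 neighbours, Leiden resolution 1). A cluster was named from at least 3 markers, each found in 20% or more of the cluster and 2-fold or more above other cells. UMIs were summed per class and library and divided by the class total (CPM). Poisson and ratio intervals are exact (scipy 1.17.1) and cover counting error only. With 1 library per group there is no test between groups and no p-value. On simulated counts of the 10225 genes, 96.1% of the 95% ratio intervals covered the ratio used. That checks only how the intervals were computed, and does not bear on spread between cells or mice.

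The members, markers, gene lists and alternatives were chosen with earlier results of these data known, and the sets of repeated, astrocyte-marker, near-limit and pigment-marker barcodes after seeing these cells. Repeated barcodes were sought among cells of at least 2000 UMIs, over genes with at least 10 UMIs in a pair. Named genes are the 10 members and, per list, up to 4 with the most UMIs and up to 2 with the largest ratio each way. Stat3 tied with Jak1 for the fourth place by UMIs. Coordinates are those of GENCODE M21, which held 30934 of the 31053 gene IDs.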

Additional observations from a re-analysis of the deposited data

How the results depend on the processing

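No paired analysis was possible because each group is 1 library with no test. Of the alternatives, 11 were planned and 6 were chosen after seeing the data. The number of genes at least 2-fold higher in MSC-sEV Müller glia-like cells was 8 and ranged from 7 (cells thinned to 1000 UMIs) to 9. The number above rod-like cells was 10 and ranged from 9 to 10. Lcn2, Serpina3n, Timp1, A2m, Chil1 and Prss56 were at least 2-fold higher under all 17 alternatives, and Steap4 and Crispld2 under the 16 that left more than 3 UMIs in a library. The log2 ratio ranged from 4.33 to 8.22 for Lcn2, 2.45 to 5.25 for Serpina3n, 2.12 to 6.79 for Timp1, 2.31 to 7.43 for A2m, 1.11 to 4.58 for Steap4, 1.05 to 3.48 for Chil1, 1.13 to 4.98 for Crispld2 and 1.48 to 3.88 for Prss56. Gfap passed 2-fold under 8 of 17 (0.16 to 3.83), and Vim under 0 of 17 (0.00 to 0.66). The 8 genes with over 50% of UMIs in their top 5 cells numbered 8 under the stricter filter and after thinning. Of 45 pairs, 43 lay above the product of the shares, and 8 did with cells thinned to 1000 UMIs, where 15 pairs were expected in at least 1 cell. Leaving out barcodes shared by both libraries was not run, since 0 are shared. The 2% highest doublet scores took 11 PBS and 0 MSC-sEV Müller glia-like cells. The class rests on 141 and 80 cells of 1 pool each, and mouse-to-mouse spread is unknown.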
